A study of Arabidopsis thaliana with 16 samples.

Results

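The RCD1 and SRO genes of Arabidopsis thaliana form a family of 6 genes, RCD1 (AT1G32230), SRO1 (AT2G35510), SRO2 (AT1G23550), SRO3 (AT1G70440), SRO4 (AT3G47720) and SRO5 (AT5G62520), and were followed here by RNA sequencing in whole seedlings whose proteasome was inhibited or weakened. The members were taken by their identifiers from the 33602 genes of the count tables, and all 6 were among the 21205 genes that passed the filter on low counts. The family was chosen by a measured value, namely that SRO3 was higher in every comparison with untreated Col-0. Those 4 values of SRO3 are therefore given as a description, with no test. Of the genes tested, 174, or 0.821%, were called higher in all 4 comparisons with untreated Col-0, and SRO3 was the 1 family member among them.

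All seedlings were 5 days old and came from liquid culture under constant light. Wild-type Col-0 was untreated, or was kept for 3 h or for 24 h in fresh medium with 100 µM MG132, a peptide aldehyde that inhibits the proteasome, with 4 libraries for each of these groups. Untreated seedlings of rpn10-1 and of rpn12a-1, which carry exon-trap alleles of genes for regulatory particle subunits of the 26S proteasome, made up 2 libraries per mutant. The untreated groups were harvested at once, without new medium, and no group received solvent or fresh medium alone, so MG132, the change of medium and the added hours cannot be told apart. Whether the replicates were grown separately is not stated in the labels, so a p-value reflects the spread among these libraries, which may be technical. For 8 libraries, those of rpn12a-1 and replicates 3 and 4 of every Col-0 group, the labels remark on a technical replicate within the sample. The presence of this remark is called the library set, and it entered the model as a term.

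RCD1 is a nuclear protein of plants with a WWE domain, a PARP-like domain that is not known to act as a poly(ADP-ribose) polymerase, and a C-terminal RST domain that binds many transcription factors. Among these partners are DREB2A, a factor of drought and heat responses that is itself removed by the proteasome, and NAC013 and NAC017, which switch on nuclear genes when mitochondria are disturbed and which RCD1 restrains. SRO1 is the closest relative of RCD1 and partly overlaps with it in function. SRO2 to SRO5 are shorter proteins with the PARP-like and RST domains but without the WWE domain, and much less is known of their roles.

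The coding sequences fell into pairs. RCD1 and SRO1 had coding lengths of 1770 and 1707 bases and were identical at 76.4% of the 1689 aligned positions. The other members had coding lengths between 918 and 972 bases. Among them SRO2 and SRO3 were identical at 69% of aligned positions, and SRO4 and SRO5 at 68.4%, whereas the remaining pairs of the family lay between 54% and 63.3%. The longest run of bases shared by a pair of members was 33, so that reads could be confused between members over short stretches at most, although how the authors' counting treated reads with several matches is not given in the sources used here. In TAIR10.1, RCD1 lies on chromosome 1 at 11611891 to 11617419 (plus strand), SRO1 on chromosome 2 at 14916690 to 14920482 (minus strand), SRO2 on chromosome 1 at 8350728 to 8352791 (plus strand), SRO3 on chromosome 1 at 26548952 to 26550636 (minus strand), SRO4 on chromosome 3 at 17592558 to 17594132 (plus strand) and SRO5 on chromosome 5 at 25097944 to 25099907 (plus strand).

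The upstream sequences of SRO2 and SRO3 are shown because these genes had the largest fold changes of the family after MG132 and shared a motif that no other member had. Each line gives the 250 bases before the annotated gene start, 5′ to 3′ on the strand of the gene, read from the RefSeq genome TAIR10.1: chr1:8350478-8350727 (plus strand) for SRO2 and chr1:26550637-26550886 (minus strand) for SRO3. Capitals mark matches to the motifs searched.
SRO2: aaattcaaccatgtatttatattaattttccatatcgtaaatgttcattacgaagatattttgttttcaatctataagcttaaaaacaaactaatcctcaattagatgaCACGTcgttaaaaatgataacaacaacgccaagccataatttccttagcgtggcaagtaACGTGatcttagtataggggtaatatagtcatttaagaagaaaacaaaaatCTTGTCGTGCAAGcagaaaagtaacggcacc
SRO3: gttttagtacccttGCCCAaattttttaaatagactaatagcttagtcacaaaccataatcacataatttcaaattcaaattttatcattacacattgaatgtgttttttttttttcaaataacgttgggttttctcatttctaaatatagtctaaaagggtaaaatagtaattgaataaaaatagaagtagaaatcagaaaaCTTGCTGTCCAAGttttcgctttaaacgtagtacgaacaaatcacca
In both windows, the capitals nearest the gene start are the mitochondrial dysfunction motif, to which NAC013 and NAC017 bind. The match ended 19 bases before the start of SRO2 and 35 bases before the start of SRO3. This motif was found, on either strand, in 1.75% of the 27443 windows of 250 bases searched upstream of genes, and in no other window of the family. The first capitals of SRO3 are TGGGC read on the other strand, 232 bases before the start; TGGGC is the core of an element described upstream of proteasome genes, and was found in 22.7% of all windows and in no other member. The other capitals in SRO2 are both matches to ACGTG, a core of abscisic acid response elements, which 22.9% of windows held and which also occurred in SRO4. TTGAC, the W-box core, was found in 44.9% of windows and in SRO1, and CCGAC, the DRE core, in 12% of windows and in SRO5. RCD1 held none of the motifs, and no member held GAANNTTC or TGACG, found in 9.55% and 18.6% of windows. A match describes letters in a window and shows no binding.

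The 16 libraries held 6646134 to 21762565 counts. RPN10 was at 21.4 and 22.2 CPM (CPM being the count scaled by library size) in rpn10-1 against 98.6 to 136 in untreated Col-0, and RPN12A at 42.9 and 52.0 CPM in rpn12a-1 against 73.6 to 102, so both mutants were low in the gene they are named for. Summed shoot markers (5 genes) were at 32760 to 46938 CPM in untreated Col-0, 29638 to 44067 at 3 h, 18843 to 26602 at 24 h, 28656 to 42656 in rpn10-1 and 35398 to 35492 in rpn12a-1, with all 5 called lower at 24 h. Summed root markers (6 genes) were at 43.0 to 139, 85.8 to 149, 5.04 to 64.9, 67.6 to 203 and 52.6 to 61.4 CPM in the same order. Of these 6, 1 was called higher at 3 h and 2 lower at 24 h. Over all genes tested, 8.68% were called higher at 3 h and 26.4% were called in either direction at 24 h. The few root marker calls are therefore descriptions. The root markers did not move together at 3 h. IRT1 had a mean of 48.8 CPM there against 12.2 in untreated Col-0, and PRP1 20.8 against 16.9. LRX1 (9.34 against 13.4) and COBL9 (4.27 against 8.43) were lower, and PRP3 (29.4 against 28.9) and EXPA7 (6.58 against 6.65) were close. No group had a marker at 0 in all its libraries. The part that a change of tissue plays in the values below was not tested, and in whole seedlings fewer cells of a type and less RNA per cell cannot be told apart.

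After MG132 some members of the family rose and others did not pass the test. At 3 h, 3 of the 6 members (RCD1, SRO2 and SRO3) were called higher and none lower, where called means a Benjamini-Hochberg adjusted p under 0.05, over all genes tested, in the quasi-likelihood test of edgeR; 17.9% of the genes tested were called in either direction and 8.68% were called higher. At 24 h, 4 members (RCD1, SRO1, SRO2 and SRO3) were called higher, against 26.4% of genes called and 12.6% higher. Between 3 h and 24 h, SRO2 and SRO3 were called higher, against 16% of genes called and 8.27% higher. In the mutants no member other than SRO3 was called; the shares of all genes were 23.0% called and 11.4% higher in rpn10-1, and 4.90% called and 2.64% higher in rpn12a-1. SRO3 chose the family in the comparisons with untreated Col-0, and nothing is read from its place in these counts: leaving it out, 2 members were called higher at 3 h, 3 at 24 h and 0 in each mutant by edgeR, where SRO2 alone had an unadjusted p under 0.05 and was the 1 member called by DESeq2. Over all 6 members, SRO3 included, the median log2 fold change was 1.34 at 3 h, 0.77 at 24 h, 0.19 in rpn10-1 and 0.18 in rpn12a-1. Because SRO3 was chosen for its rise, these medians are descriptions only.

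The lowest library of one group was above the highest of the other in 5 members at 3 h, where 8.82% of genes tested were higher in this sense, in 4 at 24 h (12.7%) and in 3 between 3 h and 24 h (7.77%). With the 2 libraries of a mutant such separation is common: it held for 2 members in rpn10-1, where 19.4% of genes were higher in this sense, and for 3 in rpn12a-1, where 16.9% were. The counts against untreated Col-0 include SRO3, which chose the family, and nothing is read from its place in them. The others were RCD1, SRO1, SRO2 and SRO5 at 3 h and RCD1, SRO1 and SRO2 at 24 h. In the mutants they were SRO2 in rpn10-1, and RCD1 and SRO2 in rpn12a-1. Between the mutants, edgeR's quasi-likelihood test called 0 members, 0 had an unadjusted p under 0.05 and DESeq2 also called 0, against 6.31% of genes called. RCD1 lay higher and SRO3 lower in rpn12a-1 than in rpn10-1 without overlap, as did 27.2% and 28.2% of genes. Both rpn12a-1 libraries carry the technical replicate remark and neither rpn10-1 library does, so in these CPM values mutant and library set cannot be told apart. With the library set in the model, the log2 fold changes were 0.05 for RCD1 (95% interval -0.48 to 0.59) and -0.55 for SRO3 (-1.28 to 0.19).

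**Figure D1:**
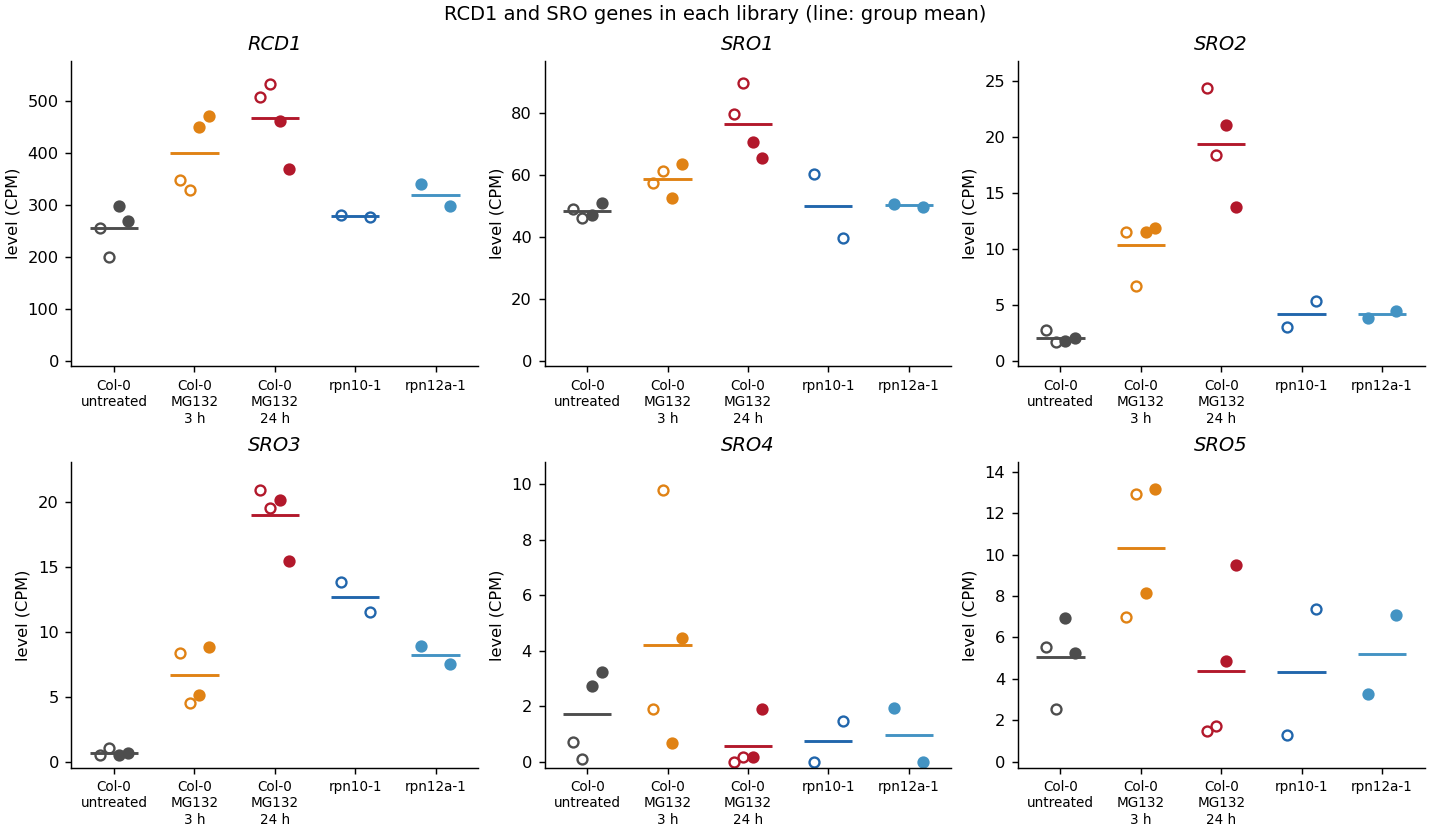
Level of each family member in every library, in CPM on a linear axis starting at 0 and with a scale of its own in each panel; filled points are libraries with the technical replicate remark, open points those without, and lines are group means. SRO3 reaches at most 1.02 CPM in untreated Col-0 and at least 4.54 CPM in every other library, whereas SRO4 and SRO5 spread widely within groups.

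**Figure D2:**
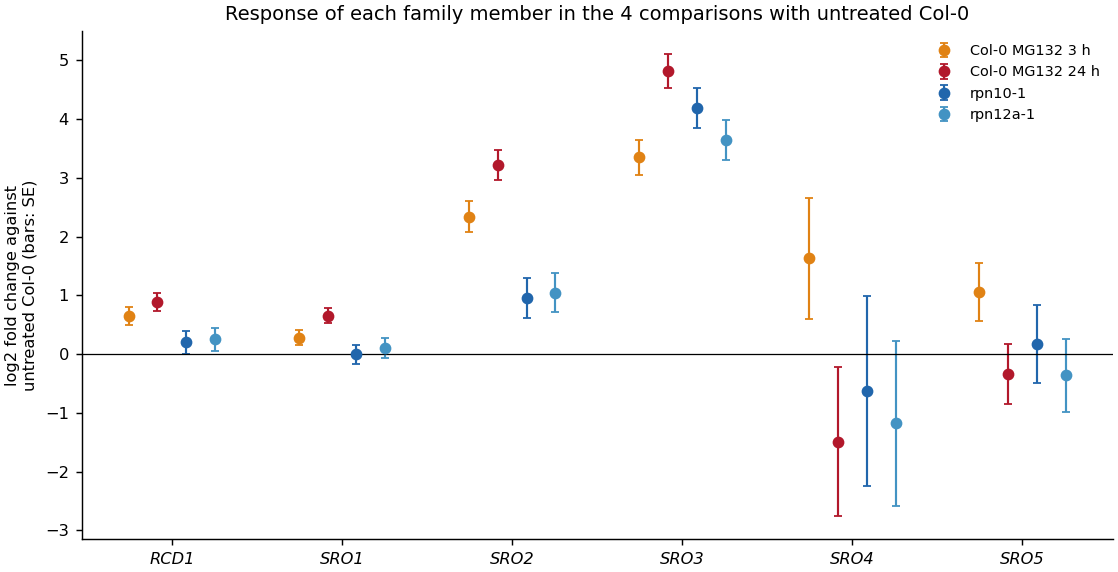
Log2 fold change of each member against untreated Col-0 (points) with its SE (bars), for the MG132 times and the mutants. SRO3 lies at 3.35 or above in all 4 comparisons and was chosen for this, SRO2 lies high after MG132 and near 1 in the mutants, and the bars of SRO4 are the widest.

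Per length the members spanned a wide range of levels in untreated Col-0. RCD1 had a mean of 56.1 RPKM (a count scaled by library size and by exon length) ± 8.89 (SD, n = 4), SRO1 16.9 ± 0.731, SRO5 2.85 ± 1.03, SRO2 1.44 ± 0.362, SRO4 1.37 ± 1.23 and SRO3 0.559 ± 0.195. RCD1 made up 70.7% ± 1.63 (SD, n = 4) of the summed RPKM of the family there and SRO3 0.745% ± 0.386. At 24 h of MG132, the share of SRO3 was 9.58% ± 0.561 (SD, n = 4) and that of RCD1 63.4% ± 1.97. The share of SRO3 was 10.9% ± 1.10 (SD, n = 2) in rpn10-1 and 6.61% ± 0.323 (SD, n = 2) in rpn12a-1. SRO3 thus moved from the lowest mean RPKM in untreated Col-0 to the third highest at 24 h (15.4 ± 1.98) and in both mutants (10.3 ± 1.31 and 6.67 ± 0.779), behind RCD1 and SRO1. At 3 h SRO2 was above SRO3, with 7.32 RPKM ± 1.75 (SD, n = 4) against 5.46 ± 1.77.

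SRO3 was close to the limit of detection in untreated seedlings. Its counts in untreated Col-0 were 8, 10, 7 and 10, which is 0.528, 1.02, 0.506 and 0.692 CPM. At 3 h it stood at 8.33, 4.54, 5.16 and 8.81 CPM, and at 24 h at 20.9, 19.5, 20.1 and 15.4 CPM. The rpn10-1 libraries had 13.8 and 11.5 CPM and the rpn12a-1 libraries 8.88 and 7.53 CPM. Every library of the other groups was thus above every untreated Col-0 library. The log2 fold changes against untreated Col-0 were 3.35 at 3 h (SE 0.30, 10.2-fold), 4.81 at 24 h (SE 0.29, 28.1-fold), 4.19 in rpn10-1 (SE 0.34, 18.3-fold) and 3.65 in rpn12a-1 (SE 0.34, 12.5-fold). These 4 comparisons share the untreated libraries, with 35 counts of SRO3 in all.

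The order of SRO3 levels was 24 h of MG132, rpn10-1, rpn12a-1, 3 h of MG132 and untreated Col-0, and only rpn12a-1 and 3 h overlapped as neighbours. SRO3 rose further between 3 h and 24 h, by a log2 fold change of 1.46 (SE 0.21, adjusted p = 0.000328, edgeR), a comparison that did not choose the family but that uses the same treated libraries. Direct comparisons of the mutants with the MG132 groups were added after the values were seen. They called 2 members between rpn10-1 and 3 h (34.1% of genes tested), 3 between rpn10-1 and 24 h (27.3%), 1 between rpn12a-1 and 3 h (15.1%) and 3 between rpn12a-1 and 24 h (14.4%). In them SRO3 was called higher in rpn10-1 than at 3 h (log2 fold change 0.84, SE 0.27, edgeR adjusted p = 0.0255), and lower in rpn12a-1 than at 24 h (-1.17, SE 0.26, adjusted p = 0.00943). SRO3 differed by 0.30 between rpn12a-1 and 3 h, with a 95% interval from -0.29 to 0.88, and by -0.62 between rpn10-1 and 24 h, with an interval from -1.18 to -0.06 and an adjusted p of 0.0965. The first call was lost without replicate 2 of 3 h (adjusted p = 0.0852) or replicate 1 of rpn10-1 (0.163), and the second without either rpn12a-1 library (0.0526 and 0.106); over all alternatives the adjusted p ran from 0.00403 to 0.163 for the first and from 6.82e-05 to 0.106 for the second.

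SRO3 shares 4 exon bases with its neighbour AT1G70430 on the opposite strand, 0.325% of its exons, and the kit does not mark strand. AT1G70430 had 3.40 CPM ± 1.06 (SD, n = 4) in untreated Col-0, 2.79 ± 0.687 at 3 h, 3.86 ± 0.912 at 24 h, 10.9 ± 0.676 (SD, n = 2) in rpn10-1 and 4.17 ± 0.157 in rpn12a-1. It was called higher in rpn10-1 only (log2 fold change 1.82, SE 0.28, edgeR adjusted p = 0.000437) among the 4 comparisons with untreated Col-0. At 24 h, where SRO3 was highest, the log2 fold change of this neighbour was 0.19 (adjusted p = 0.583).

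SRO2, the closest relative of SRO3, rose after MG132 and had smaller fold changes in the mutants. It stood at 2.77, 1.64, 1.74 and 2.01 CPM in untreated Col-0, at 11.5, 6.67, 11.5 and 11.9 CPM at 3 h and at 24.3, 18.4, 21.0 and 13.7 CPM at 24 h. The MG132 groups overlapped neither with the untreated group nor with each other. SRO2 rose at 3 h (log2 fold change 2.34, SE 0.27, adjusted p = 2.16e-05) and at 24 h (3.22, SE 0.26, adjusted p = 5.26e-07) by edgeR's quasi-likelihood test. It rose again between 3 h and 24 h (0.88, SE 0.23, adjusted p = 0.0187). This last call was lost without replicate 2 of 3 h (adjusted p = 0.0523), replicate 1 of 24 h (0.0633) or replicate 3 of 24 h (0.0562), and within the libraries that carry the technical replicate remark (0.59, adjusted p = 0.137); over all alternatives its adjusted p ran from 3.9e-05 to 0.137.

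In the mutants SRO2 had 3.01 and 5.31 CPM (rpn10-1) and 3.82 and 4.47 CPM (rpn12a-1), all above the 4 untreated Col-0 libraries and below every MG132 library. The log2 fold change was 0.96 in rpn10-1 (SE 0.34, 95% interval 0.22 to 1.69, edgeR adjusted p = 0.0539) and 1.04 in rpn12a-1 (SE 0.33, interval 0.33 to 1.75, adjusted p = 0.0944), so neither passed the threshold. DESeq2 called both (adjusted p = 0.0356 and 0.0482). Without untreated replicate 1 or rpn10-1 replicate 1, edgeR called SRO2 in rpn10-1 (adjusted p = 0.0441 and 0.043), and over all alternatives the adjusted p ran from 0.00488 to 0.386 in rpn10-1 and from 0.00287 to 0.413 in rpn12a-1. In the comparisons added after the values were seen, SRO2 was lower in rpn10-1 than at 3 h (log2 fold change -1.38, SE 0.32, edgeR adjusted p = 0.00582) and than at 24 h (-2.26, SE 0.32, adjusted p = 0.000192). It was likewise lower in rpn12a-1 than at 3 h (-1.296, SE 0.31, adjusted p = 0.0128) and than at 24 h (-2.18, SE 0.31, adjusted p = 0.000391). The comparisons with 3 h lost the call without rpn10-1 replicate 1 (adjusted p = 0.0893) and without either rpn12a-1 library (0.109 and 0.0805). Those with 24 h had adjusted p-values of at most 0.00478 and 0.0112 over all alternatives. Its neighbour AT1G23560 overlaps 12.5% of the SRO2 exons on the other strand and had group means between 1.73 and 3.65 CPM.

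The balance of SRO3 and SRO2 differed between the groups. The mean log2 ratio of SRO3 to SRO2 counts was -1.54 ± 0.69 (SD, n = 4) in untreated Col-0, -0.64 ± 0.34 at 3 h, -0.01 ± 0.17 at 24 h, 1.65 ± 0.76 (SD, n = 2) in rpn10-1 and 0.98 ± 0.33 (SD, n = 2) in rpn12a-1. All 4 mutant libraries lay above the 12 Col-0 libraries, a description, since SRO3 was chosen for being high in the mutants. At 24 h the ratio was above the highest 3 h library in all 4 libraries, with a mean difference of 0.64 that did not pass the adjusted test (exact permutation test, two-sided, p = 0.0286, the smallest that 4 against 4 libraries allow; adjusted p = 0.143 over the 10 ratio tests).

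**Figure D3:**
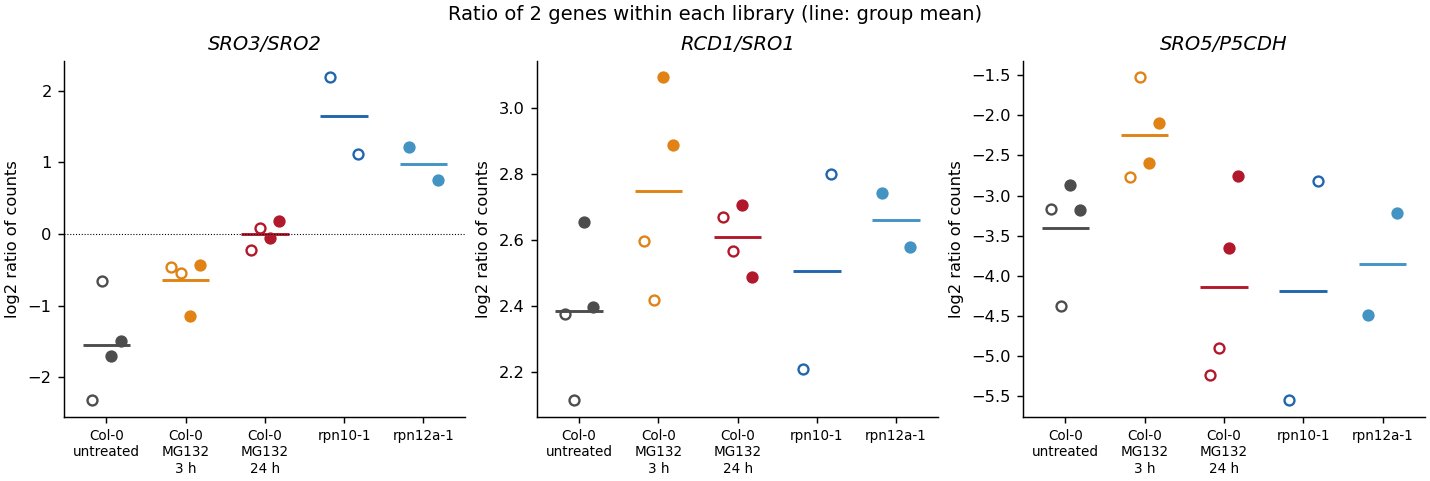
Log2 ratio of the counts of SRO3 to SRO2, RCD1 to SRO1 and SRO5 to P5CDH within each library (points, filled where the label holds the technical replicate remark), with group means as lines. The ratio of SRO3 to SRO2 lies between -2.32 and 0.17 in Col-0 and between 0.75 and 2.19 in the mutants.

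RCD1 was the most abundant member in every group and rose after MG132. Its libraries had 255, 200.4, 297 and 268 CPM in untreated Col-0, 348, 328, 449 and 472 CPM at 3 h, and 507, 533, 462 and 368 CPM at 24 h. Both MG132 groups lay above the untreated group and overlapped with each other. RCD1 rose by a log2 fold change of 0.64 at 3 h (SE 0.15, edgeR adjusted p = 0.00968) and 0.89 at 24 h (SE 0.15, adjusted p = 0.000758), and the difference of 0.25 between the times did not pass the test (95% interval -0.08 to 0.57, adjusted p = 0.292). The 3 h call was lost within the libraries without the technical replicate remark (0.57, adjusted p = 0.083; range over all alternatives 0.000421 to 0.083). Between 3 h and 24 h the sets went opposite ways, with 0.62 (adjusted p = 0.0253) in libraries without the remark and -0.14 (adjusted p = 0.631) in those with it.

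In the mutants RCD1 was at 279.7 and 277 CPM (rpn10-1) and at 340 and 297 CPM (rpn12a-1). Against untreated Col-0 the log2 fold change was 0.20 in rpn10-1 (95% interval -0.22 to 0.62, edgeR adjusted p = 0.488) and 0.25 in rpn12a-1 (interval -0.17 to 0.68, adjusted p = 0.591). In the added comparisons RCD1 was lower in rpn10-1 than at 24 h (-0.69, SE 0.20, edgeR adjusted p = 0.0196, lost without 24 h replicate 2 or without either rpn10-1 library, with a range of 0.00356 to 0.088 over all alternatives), and rpn12a-1 differed from 24 h by -0.64 (adjusted p = 0.0511). The latter was called with DESeq2 (adjusted p = 0.0126), RLE scaling (0.0485), no filter (0.0178) and without 24 h replicate 4 (0.00754), with a range of 0.00754 to 0.278 over all alternatives.

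SRO1, the partner of RCD1 by sequence, was steady in untreated Col-0, at 49.2, 46.2, 47.1 and 50.9 CPM. It had 57.6, 61.3, 52.6 and 63.7 CPM at 3 h and 79.8, 89.8, 70.7 and 65.7 CPM at 24 h, with no overlap between any of the Col-0 groups. Its log2 fold change of 0.28 at 3 h did not pass the test (SE 0.13, edgeR adjusted p = 0.151), and it rose by 0.65 at 24 h (SE 0.13, adjusted p = 0.00177). Between the times it differed by 0.37 (adjusted p = 0.0593), which was called with DESeq2 (0.0354), no filter (0.0342) and without replicate 4 of 3 h (0.0453) or of 24 h (0.037), with a range of 0.0342 to 0.288 over all alternatives. The rpn10-1 libraries stood apart from each other, at 60.4 and 39.7 CPM, and rpn12a-1 had 50.7 and 49.8 CPM, with log2 fold changes of -0.00 (95% interval -0.35 to 0.35, adjusted p = 0.994) and 0.10 (interval -0.24 to 0.45, adjusted p = 0.827). In the added comparisons SRO1 was lower than at 24 h in rpn10-1 (-0.66, SE 0.16, edgeR adjusted p = 0.00926) and in rpn12a-1 (-0.55, SE 0.16, adjusted p = 0.0396). The former was lost without rpn10-1 replicate 2 (adjusted p = 0.123) and the latter without either rpn12a-1 library (0.175 and 0.192) or without replicate 2 or 3 of 24 h (0.0692 and 0.0653). The largest adjusted p over all alternatives was 0.123 for the former and 0.192 for the latter, and the smallest were 0.00146 and 0.0134.

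Within libraries, the log2 ratio of RCD1 to SRO1 was 2.39 ± 0.22 (SD, n = 4) in untreated Col-0, 2.75 ± 0.30 at 3 h and 2.61 ± 0.10 at 24 h. The differences from untreated were 0.36 (exact permutation test, p = 0.143, adjusted p = 0.238) and 0.22 (p = 0.0857, adjusted p = 0.214), so an unequal change of the pair was not detected with 4 libraries a group.

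SRO5 overlaps the neighbouring gene P5CDH, which encodes the proline-degrading enzyme pyrroline-5-carboxylate dehydrogenase, tail to tail. The pair is known for small RNAs made from the overlap of both transcripts under salt stress, when SRO5 is induced. In TAIR10.1 the genes share 905 bases, including 811 exon bases that make up 45.5% of the SRO5 exons and 31.3% of those of P5CDH. Because the kit does not mark strand, reads in this stretch cannot be told apart.

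**Figure D4:**
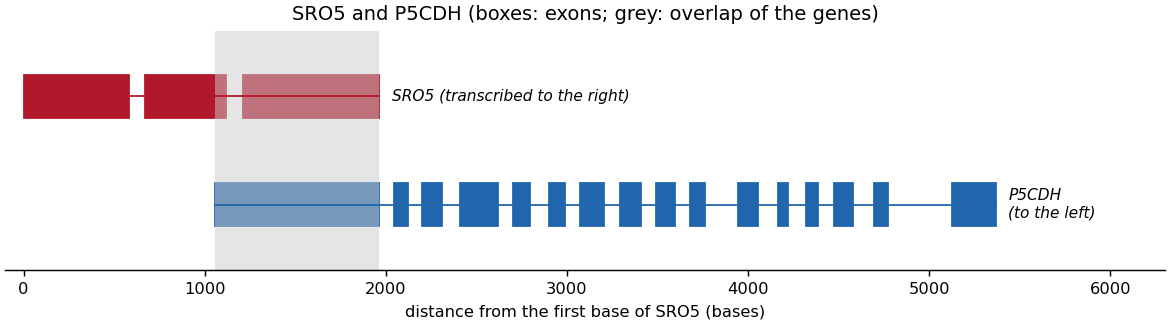
Map of SRO5 and P5CDH to scale, in bases from the first base of SRO5, with exons as boxes and the 905 shared bases in grey. The shared stretch covers the end of SRO5 and the last exon of P5CDH, which runs the other way.

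SRO5 had 5.54, 2.56, 6.94 and 5.26 CPM in untreated Col-0 and 6.97, 12.9, 8.15 and 13.2 CPM at 3 h. At 24 h it had 1.501, 1.72, 4.89 and 9.48 CPM, and the mutants had 1.3005 and 7.36 CPM (rpn10-1) and 3.29 and 7.10 CPM (rpn12a-1). The lowest 3 h library lay just above the highest untreated one, and the other groups overlapped with the untreated group. The log2 fold change was 1.06 at 3 h (SE 0.49, edgeR adjusted p = 0.161), -0.33 at 24 h (SE 0.51, adjusted p = 0.67) and -1.39 between the times (SE 0.50, adjusted p = 0.0758), none of them called. Without replicate 4 of 24 h the last was called (-1.89, adjusted p = 0.0211; range over all alternatives 7.99e-08 to 0.376). In rpn10-1 and rpn12a-1 the log2 fold changes were 0.17 (95% interval -1.24 to 1.58) and -0.36 (interval -1.69 to 0.97).

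P5CDH itself had 50.8 CPM ± 2.54 (SD, n = 4) in untreated Col-0, 47.8 ± 7.90 at 3 h, 59.4 ± 4.96 at 24 h, 57.4 ± 7.24 (SD, n = 2) in rpn10-1 and 70.2 ± 5.66 in rpn12a-1, and was called in none of the comparisons with untreated Col-0 by edgeR. The log2 ratio of SRO5 to P5CDH was -3.40 ± 0.67 (SD, n = 4) in untreated Col-0, -2.25 ± 0.56 at 3 h and -4.14 ± 1.15 at 24 h. It was 1.15 higher at 3 h than in untreated Col-0 with no overlap (exact permutation test, p = 0.0286, adjusted p = 0.143) and differed by -1.89 between 24 h and 3 h (p = 0.0571, adjusted p = 0.19).

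SRO4, the closest relative of SRO5, was scarce and uneven. Its libraries had 0.726, 0.102, 2.75 and 3.25 CPM in untreated Col-0, 1.89, 9.80, 0.665 and 4.45 CPM at 3 h, and 0, 0.181, 0.190 and 1.90 CPM at 24 h. In each mutant 1 library held no count, in rpn10-1 beside 1.49 CPM and in rpn12a-1 beside 1.94 CPM. A count of 0 allows a level of up to 0.322 CPM in the 24 h library, 0.205 in the rpn10-1 library and 0.141 in the rpn12a-1 library, for counting error only. All groups overlapped with untreated Col-0, and no comparison was called: the log2 fold changes were 1.63 at 3 h (SE 1.03, edgeR adjusted p = 0.345), -1.49 at 24 h (SE 1.26, adjusted p = 0.392) and -3.12 between the times (SE 1.22, adjusted p = 0.0942). The last was called without replicate 4 of 24 h (-4.90, adjusted p = 0.0389; range over all alternatives 1.78e-13 to 0.469). In rpn10-1 and rpn12a-1 the 95% intervals ran from -4.08 to 2.82 and from -4.17 to 1.81, so changes of many fold would not have been detectable in SRO4. The log2 ratio of SRO5 to SRO4 had an SD of at least 1.21 in each Col-0 group, and its differences of -0.43, 1.40 and 1.83 (3 h, 24 h and 24 h against 3 h) had exact permutation p-values of 0.686, 0.2 and 0.114.

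SRO4 ends in an overlap of 73 bases (5.86% of its exons) with ABCA2, a transporter gene on the other strand with 41.8 CPM ± 7.48 (SD, n = 4) in untreated Col-0. ABCA2 was called higher at 3 h (log2 fold change 0.61), at 24 h (0.49) and in rpn10-1 (0.95), by edgeR, with adjusted p of 0.00263, 0.00792 and 0.000524. SRO5 and SRO4 were lowest at 24 h in replicates 1 and 2, where the summed root markers were 5.04 and 9.14 CPM against 64.9 and 49.2 in replicates 3 and 4. Replicates 1 and 2 also lack the technical replicate remark that 3 and 4 carry, so root markers and library set cannot be separated there. In rpn10-1 the library with the lower SRO5 and SRO4 also had the lower root marker sum (67.6 against 203 CPM). In other groups the order was mixed. Untreated replicate 4 had the lowest root marker sum of its group (43.0 CPM) and the highest SRO4 (3.25 CPM). At 3 h, replicate 3 had the lowest sum (85.8 CPM) and the lowest SRO4 (0.665 CPM). The lowest SRO5 at 3 h (6.97 CPM) was in replicate 1, with a sum of 133 CPM. In rpn12a-1, replicate 2 had the lower sum of the pair (52.6 CPM), no count of SRO4 and the higher SRO5 (7.10 CPM). The part of root tissue in these values was not tested.

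Over the 16 libraries, the members most alike in log2 CPM were RCD1 and SRO2 (Pearson r = 0.899), followed by SRO2 and SRO3 (0.794), RCD1 and SRO1 (0.791), SRO1 and SRO2 (0.765) and SRO4 and SRO5 (0.734). The points share groups and library sets, so these values are descriptions. Among 15594 other genes whose mean reached 5 CPM, the 5 most like SRO3 were all genes of the proteasome: PAF2 (r = 0.975), PAA2 (0.975), PBD2 (0.970) and PAG1 (0.970), which encode subunits of its core particle, and MEE34 (AT3G11270, 0.967), which encodes a subunit of its regulatory particle. By Spearman's rho, 0 of these 5 remained among the top 5, with ranks from 8 to 100. SRO3 was chosen for its rise against untreated Col-0, and that rise enters these correlations, so its likeness to other genes is a description only. PAA2 had group means of 74.7 CPM in untreated Col-0, 407 at 3 h, 957 at 24 h, 456 in rpn10-1 and 468 in rpn12a-1, so its means in the mutants were above its mean at 3 h, as were those of SRO3.

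The genes most like SRO2 were others. NBR1, a receptor of selective autophagy (r = 0.973), had group means of 191 CPM in untreated Col-0, 736 at 3 h, 1490 at 24 h, 295 in rpn10-1 and 369 in rpn12a-1. DREB19, a relative of DREB2A (r = 0.972), was at 0.155, 6.82, 24.6, 1.66 and 0.618 CPM in the order untreated, 3 h, 24 h, rpn10-1, rpn12a-1. AT1G65020, AT3G03610 and AT1G08050 followed, and 3 of the 5 were shared with the Spearman ranking. For RCD1 the top 5 were SPHK2, a sphingosine kinase (r = 0.945), AT1G45150, BRL1, a brassinosteroid receptor, JMJ14, a histone demethylase, and AT2G38000. For SRO1 they were EP1 (r = 0.940), AT4G02740, AT1G45231, AT1G11330 and ARI12. SRO4 was most like FBL17 (r = 0.914), the sucrose synthase gene SUS4 (0.913), the ethylene-forming oxidase gene ACO1 (0.881), AT5G66985 and AT3G03270, and SRO5 was most like AT2G14247 (0.915), the superoxide dismutase gene CSD1 (0.896), PCK1, FBL17 and TOPP9.

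**Figure D5:**
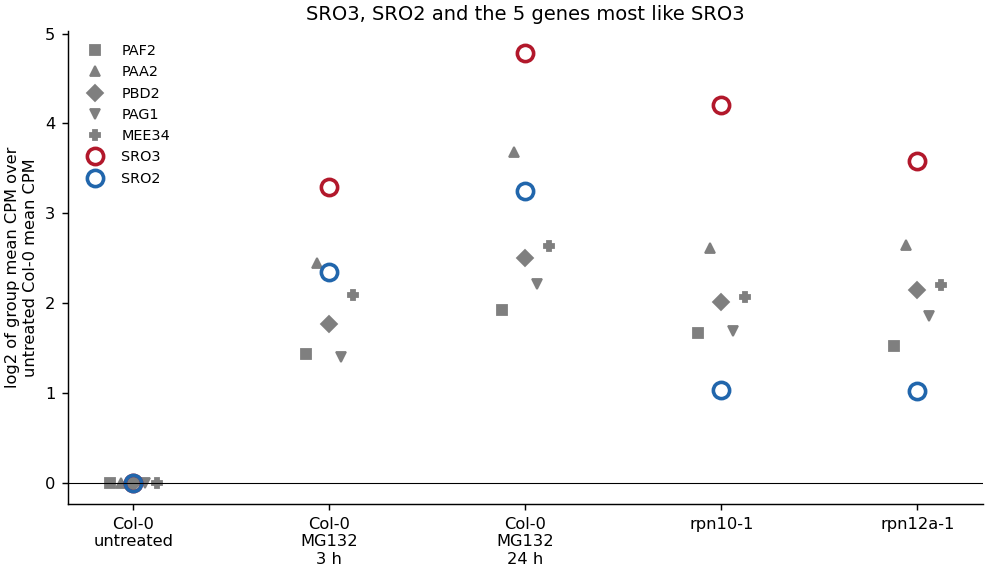
Group mean CPM over the untreated Col-0 mean, on a log2 scale, for SRO3 and SRO2 (open circles) and for the 5 genes most like SRO3 (grey symbols). The grey genes were chosen for their likeness to SRO3; in the mutants they lie above SRO2 and below SRO3.

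Genes around the family were followed as lists. Of 14 targets of NAC013 and NAC017, the factors that RCD1 restrains, 13 rose and none fell at 3 h, with a median log2 fold change of 3.89 against about 0 over all genes tested, of which 8.68% rose. SOT12, a sulfotransferase gene (3.68, edgeR adjusted p = 2.25e-10), AOX1A, the alternative oxidase of mitochondria (3.07, adjusted p = 7.88e-10), and UGT74E2, an auxin glucosyltransferase gene (4.49, adjusted p = 1.45e-09), had the smallest p. At 24 h, 11 rose and 2 fell, where 26.4% of all genes tested were called. Between 3 h and 24 h, 9 fell and none rose, where 16% of all genes were called. UGT74E2, for example, had a mean of 4.43 CPM in untreated Col-0, 99.5 at 3 h and 1.64 at 24 h. Against untreated Col-0 it was 1 of the 2 called lower at 24 h (-1.44, edgeR adjusted p = 0.000353). SRO2 and SRO3, whose upstream windows hold a match to the motif of these factors, were higher at 24 h than at 3 h. At 24 h both lay above untreated Col-0, and 11 of the 14 targets were called higher there. Whether the factors act on SRO2 or SRO3 was not tested.

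In rpn10-1, 2 of the 14 targets were called higher, 3 were called lower and 9 were not called, where 23.0% of all genes were called. In rpn12a-1, 2 were called higher, 4 were called lower and 8 were not called, where 4.90% of all genes were called. In rpn10-1, UPOX, a mitochondrial stress gene (2.25, edgeR adjusted p = 1.48e-05), and AOX1A (0.96, adjusted p = 0.000384) rose and 3 fell, and in rpn12a-1 AOX1A (1.44, adjusted p = 1.4e-05) and UPOX (0.91, adjusted p = 0.0425) rose and 4 fell. UGT74E2 fell in both (-1.38 and -3.42, adjusted p = 0.00751 and 1.1e-05). All these comparisons share the untreated Col-0 libraries.

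Of 12 transcription factors known to bind RCD1, 4 rose and 2 fell at 3 h, where 17.9% of all genes tested were called. Those that rose were DREB2C (log2 fold change 3.38, edgeR adjusted p = 3.72e-08), NAC013 (2.66, adjusted p = 6.39e-08), DREB2A (2.26, adjusted p = 6.55e-05) and DREB2B (1.39, adjusted p = 0.0141), and RAP2.4A and PIF5 fell. The same 4 were called higher at 24 h (2.42, 1.29, 0.91 and 1.17) and the other 8 were not called, where 26.4% of all genes were called, and DREB2A, DREB2C and NAC013 were lower there than at 3 h. In rpn10-1, 4 rose, among them DREB2C (1.496) and PIF7 (1.03), and RAP2.4A fell (-1.55), where 23.0% of all genes were called. In rpn12a-1, edgeR called none of the 12, where 4.90% of all genes were called. Of 7 genes that control DREB2A or lie downstream of it, 1 was called at 3 h, where 17.9% of all genes were called. It was RD29A, a drought and cold response gene, called higher (2.5, edgeR adjusted p = 0.00964). Its libraries ran from 32.5 to 489.5 CPM at 3 h, against 18.9 to 26.7 CPM in untreated Col-0. None of the 7 was called at 24 h or in rpn12a-1, and 2 were called higher in rpn10-1. Between 3 h and 24 h, 2 of the 7 were called lower, among them RD29A (-3.74, edgeR adjusted p = 0.00112).

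Of 7 genes for other PARP proteins and enzymes that remove or hydrolyse ADP-ribose, PARG2, a poly(ADP-ribose) glycohydrolase gene, was called higher in all 4 comparisons with untreated Col-0. Its log2 fold changes were 2.60 at 3 h, 4.54 at 24 h, 1.55 in rpn10-1 and 1.71 in rpn12a-1 (edgeR adjusted p = 3.52e-06, 7.28e-09, 0.00235 and 0.00302). At 24 h, 5 of the 7 rose, where 12.6% of all genes tested rose, among them NUDX6, a Nudix hydrolase gene, by 4.86 (adjusted p = 2.52e-08), NUDX7 by 1.13 and PARP2 by 1.00, and 5 were higher at 24 h than at 3 h, where 8.27% of all genes were. PARP2, a DNA-damage polymerase gene, also rose in rpn10-1 (1.41, adjusted p = 0.00363).

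For the remaining lists, calls against untreated Col-0 are given, not all of them by name. Of the TAF4 genes, whose proteins carry the other plant RST domain, TAF4 rose at 24 h (0.45) and in rpn10-1 (0.60). Of 5 genes for kinases and other partners of RCD1, PPK4 rose at 24 h (0.40) and PPK2 in rpn10-1 (0.44). Over all genes tested, 17.9% were called at 3 h, 26.4% at 24 h and 23.0% in rpn10-1, so single calls in these short lists are descriptions. Of 6 proline genes, PRODH1, the proline dehydrogenase that acts before P5CDH, fell at 3 h (-0.77), at 24 h (-0.61) and in rpn10-1 (-0.97). At 3 h, 1 other gene of this list was called higher. Of 14 antioxidant genes 13 were tested: APX1, a cytosolic ascorbate peroxidase gene, rose at 3 h (0.59), and 5 fell at 24 h, where 26.4% of all genes were called in either direction, among them TAPX (-0.88) and CSD2 (-1.12), both of the chloroplast. At 24 h the shoot marker sums were lower too, and their part in these falls was not tested. In rpn10-1, 1 antioxidant gene was called higher and 2 lower, where 23.0% of all genes were called.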

How the data were processed

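RNA from whole seedlings was sequenced in 16 libraries. The deposited values are whole-number read counts for each gene, not normalized, made by the authors with Trimmomatic, TopHat, Bowtie2 and HTSeq on the TAIR10 genome, per the submitters' processing notes, which also name edgeR. Their versions, the strand setting and the handling of reads with several matches were not stated; the kit named in the labels' protocols does not mark strand. How reads in overlaps between genes were counted was not stated, so values of overlapping genes are uncertain.

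Counts were analysed with edgeR 4.0.16 in R 4.3.3. Genes were kept by filterByExpr with the group as factor (21205 of 33602), scaled by TMM, and fitted with group and library set as terms in all 16 libraries. The two-sided quasi-likelihood F-test gave the calls, with Benjamini-Hochberg adjustment and a threshold of 0.05. SEs come from the fitted model. Ratios of counts plus 0.5 were compared by exact permutation. CPM and RPKM are the deposited counts over scaled library sizes and, for RPKM, over exon lengths from TAIR10.1, in which 32835 identifiers were found. Coordinates and upstream sequences come from the same RefSeq annotation; the count files hold no coordinates. Motifs were searched on both strands, and overlapping matches were kept.

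Replicates differed from each other by a chi-square per degree of freedom of 7.77 to 69.7, and no pair was identical, so none was counted as a repeat. The scripts were tested on simulated data. Alternatives were DESeq2 1.42.0, RLE scaling, no filter, no library set term, each library set alone, the compared groups alone, a replicate block, each library left out, another pseudocount (5), permutation within library sets, and Spearman ranks. Always named are the members, P5CDH and the targeted genes; further named genes are the 5 most like each member and up to 4 of each list with the smallest p in a comparison, and a part of them is given. The overlapping neighbours AT1G23560, AT1G70430 and ABCA2 were named after the annotation was read. The members and lists were chosen with earlier results of these data known, and the comparisons of the mutants with the MG132 groups after the values were seen.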

Additional observations from a re-analysis of the deposited data

Results flagged for a closer look

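Of 18 groups of 4 libraries examined (6 members in 3 Col-0 groups), 2 held a library far from the other 3 by Dixon's ratio of the gap to the whole range; chance gives about 1 in 20. SRO2 in replicate 2 at 3 h of MG132 was low, at 6.67 CPM against 11.5 to 11.9 in the others (ratio 0.92). SRO4 in replicate 4 at 24 h was high, at 1.9 CPM against 0 to 0.190 (ratio 0.9). Both libraries bear on calls given above: without the first, the rise of SRO2 between the times was not called (edgeR adjusted p = 0.0523, against 0.0187 with it), and without the second the fall of SRO4 between the times was called (0.0389, against 0.0942).

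The MG132 times differed in their effect on SRO2 and on SRO3. SRO2 was higher at 24 h than at 3 h by 0.88 and SRO3 by 1.46 on the log2 scale (edgeR adjusted p = 0.0187 and 0.000328), in each case with all 4 libraries of 24 h above all 4 of 3 h. The adjusted p of the SRO3 difference stayed at or under 0.0117 in the 16 alternatives.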

How the results depend on the processing

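A fold change within 1 SE of 0 was given no direction. The number of members called between 24 h and 3 h depended most on the processing: 2 as reported, 4 with DESeq2, 5 with no filter, 5 in libraries without the technical replicate remark, 1 in those with it, and 1 to 5 with a library left out. In rpn10-1 it was 1 as reported and 2 with DESeq2, no filter or no library set term, and 1 to 2 with a library left out. In rpn12a-1 it was 1 as reported and 2 with DESeq2, no filter or the libraries with the remark. At 3 h it was 3 as reported, 5 with no filter, 4 in the compared groups alone (SRO5 gained, edgeR adjusted p = 0.0178) and 2 in the libraries without the remark (RCD1 lost, 0.083). At 24 h it was 4 as reported and 5 with no filter. The cause was not tested. No member was called between the mutants under any alternative run. Fold changes turned in sign for SRO4 at 3 h (-0.0773) and RCD1 between the times (-0.136), both within the libraries with the remark. The ratio of SRO5 to SRO4 at 3 h ran from -0.97 to 0.19 with a library left out.

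The deviations of same-numbered libraries of the Col-0 groups had correlations of -0.181 to 0.496 over 12 pairs, of which 7 were above 0.1. Untreated replicate 1 correlated more with 3 h replicate 2 (0.356) than with 3 h replicate 1 (0.329). Likewise, untreated replicate 3 correlated more with 3 h replicate 4 (0.437) than with 3 h replicate 3 (0.227). Untreated replicates 2 and 4 correlated most with 3 h replicates 2 and 4 (0.467 and 0.496). Pairing was thus not settled, so the main model left it out and a replicate block was run as an alternative. With the replicate block, 3 members were called at 3 h, 4 at 24 h, 2 between the times, 1 in each mutant and 0 between the mutants, as without it. The count of all genes called in rpn12a-1 was 2124 with the block and 1039 without, 1983 with no filter, and 495 and 564 with 1 rpn12a-1 library. In rpn10-1 it was 4873, and 2735 with no library set term, 2235 without rpn10-1 replicate 1, and 3217 and 3076 without untreated replicates 1 and 2. At 3 h it was 3800, and 1228 within the libraries without the remark. At 24 h it was 5595, and 3633 within the libraries with it. Between the times it was 3398, 5469 and 1923 within the sets without and with the remark, and 2185, 2008 and 2119 without 3 h replicate 2 or 24 h replicates 1 or 2. Between the mutants it was 1338, with 261 in the compared groups alone, 782 with no library set term, 2137 with DESeq2, 3025 with no filter, 804 without rpn10-1 replicate 1, and 521 and 478 without rpn12a-1 replicates 1 and 2. Comparisons between library sets could not be run within 1 set. SRO3 held 35 counts over the untreated Col-0 libraries and SRO4 at most 69 in any library, which limits the precision of their fold changes.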
